A study of Mus musculus with 42 samples.

Results

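Very long genes in which RNA polymerase II (Pol II) sat at the transcription start of resting macrophages were followed through the response to lipopolysaccharide (LPS), in cells with and without the nuclear receptor Nur77 (gene Nr4a1). A gene was a member when it was protein-coding, longer than 200 kb in the mm10 (GRCm38) annotation, and when the 500 bp on either side of its annotated start overlapped a Pol II region in each of the 3 wild-type (WT) libraries at 0 h. Of 21884 protein-coding genes, 995 were longer than 200 kb, and 338 of these were members. The start was listed in 1 or 2 of the 3 libraries in 28 other genes and in none in 629.

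The libraries came from bone marrow-derived macrophages (BMDMs) of male mice aged 6 to 12 weeks, differentiated for 7 days in L929-conditioned medium and left unstimulated (0 h) or given 100 ng/ml LPS for 1 h or 18 h. WT cells came from littermates of the KO mice, and the study's methods name C57Bl6/J for the Cre mice of the cross. Nur77-KO (KO) cells came from mice with a whole-body deletion of Nr4a1, made by crossing floxed Nr4a1 mice with CMV-Cre mice and kept without the Cre transgene, although the genotype label of the KO samples reads only "cre". Chromatin immunoprecipitation sequencing (ChIP-seq) gave 3 Pol II libraries, 3 H3K27ac libraries and 1 input library in each of the 6 groups. The study's methods speak of biological replicates, whereas the labels tie no replicate to a separate animal, so p-values measure the spread between these libraries.

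Pol II pauses shortly after initiation at many genes, and LPS signalling through Toll-like receptor 4 starts new rounds of transcription at some genes and stops initiation at others. In a very long gene, Pol II released at the start needs a long time to reach the end, so newly released Pol II fills the gene from the start outward. Where initiation stops, Pol II that is already under way leaves the start first and the end last. Long genes therefore let a single time point show how far Pol II has travelled. H3K27ac is a histone mark of active promoters and enhancers.

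Density is given as normalized tags per kb, where a tag is an aligned read and each library is scaled to 10 M tags. The deposited files list only regions in which Pol II passed a Poisson threshold, so a value of 0 means that no region was listed. The least density with which a 500 bp window could pass was 10.23 to 12.07 tags per kb in the Pol II libraries. A region that joins windows across gaps can average less. Each region carries 1 value over its whole length, up to 342 kb. Where a long region spans several 20 kb bins, the bins share that value, are not independent of each other, and hide any slope inside the region.

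Pol II libraries held 21.7 M to 36.1 M tags, H3K27ac libraries 13.5 M to 55.4 M and inputs 25.6 M to 45.3 M. All 10 macrophage markers on the list had Pol II signal in all 18 Pol II libraries, while Cd3e, Pax5, Elane, Mpo, Siglech, Col1a1, Col1a2 and Hbb-bs were at 0 in all. Other markers of these cell types were not at 0: Cd3d, Lck, Cd79a, Zbtb46 and Xcr1 had signal in all 18 (Xcr1 18.3 to 128 tags), Klf1 in 12 and S100a8 in 10. The summed neutrophil list, led by S100a8, held 24.1 to 28.2 tags in KO and 10.3 to 12.7 in WT at 0 h, 6.53 to 13.2 and 0 to 0.542 at 1 h, and 0 and 0.415 to 3.87 at 18 h. The dendritic list, led by Xcr1, held 21.4 to 24.0, 105 to 120 and 32.7 to 87.4 tags in KO and 18.8 to 25.7, 108 to 128 and 28.9 to 35.1 in WT at 0, 1 and 18 h. The macrophage list held 1689 to 2004, 1253 to 1343 and 1109 to 1161 tags in KO and 1797 to 1976, 1321 to 1377 and 1291 to 1433 in WT at 0, 1 and 18 h. The part of these lists in the results was not tested. Over Nr4a1 itself, Pol II at 0 h was 77.5, 58.9 and 60.6 tags in KO and 175, 171.0 and 191 tags in WT, so the gene still carried Pol II in KO libraries. At 1 h the order was opposite, with 33.5, 37.4 and 36.6 tags in KO against 25.5, 23.0 and 30.4 in WT, and at 18 h KO was at 0 and WT at 7.46, 5.98 and 0. Because the libraries are bulk samples, fewer transcribing cells and less Pol II per cell cannot be told apart. WT replicate 1 at 0 h had 61.6% of its tags in regions, against 71.5% and 71.1% in the others. Input density over members had medians of 0.0947 to 0.936 tags per kb, which reach those of Pol II over the whole gene (0.321 to 0.814 tags per kb by group), and 2.51% of member bins had at least 5. It was highest in Srgap2 (mean over inputs 6.78) and also high in Alcam (6.02), Peak1 (5.15), Dock10 (4.83), Mitf (4.38) and Akap13 (3.94). Counts and the values of some named genes are therefore also given with regions that touched an input region left out. Such values are not given for Alcam, Peak1, Dock10 and Mitf.

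Members had a median length of 279 kb and lay on 20 chromosomes. The longest were the gene model Gm20388 (4435 kb), the fibroblast growth factor receptor gene Fgfr2 (2961 kb) and Dlg2 (1973 kb), which encodes a synaptic scaffold. No other protein-coding gene lay inside 260 members, whereas 23 members shared over 10% of their length with one, Gm20388 with 50.4% and Fgfr2 with 53.2%. Among the pairs of members that overlapped were Umad1 with Gm45062, Foxp1 with Gm20696 and E130114P18Rik with Nfia. The 2 members nearest the length limit were Umad1 (200.18 kb) and 4930402H24Rik (200.21 kb), at 0.785 and 6.65 tags per kb over the whole gene in WT at 0 h. The nearest genes below it were Atp9b (199.92 kb, 2.45 tags per kb) and Clec16a (199.54 kb, 0.222 tags per kb).

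Promoter sequences were read for the members whose Pol II profiles are described in most detail, to show what kind of start stands before these genes. Of the 338 members, 254 had an entry in the RefSeq promoter table (GRCm38.p6, 250 bases before to 50 after the RefSeq start), and in 210 of them that start lay within 500 bp of the annotated start used here. Capitals mark a motif found on either strand. Aoah (chr13:20793863-20794162, plus strand) held none of the motifs searched and 3 CG dinucleotides, and Dock2 (chr11:34783856-34784155, minus strand) none and 5. Ankrd44 (chr1:54926338-54926637, minus strand) held a TATA box beginning at base 262 and 37 CG dinucleotides. Diaph2 (chrX:129749492-129749791, plus strand) held an AP-1 motif beginning at base 169 and 20 CG dinucleotides. Msi2 (chr11:88718228-88718527, minus strand) held a cAMP response element (CRE) beginning at base 82 and 39 CG dinucleotides, and its RefSeq start lay 236 bp from the start used here. Dock8 (chr19:24999279-24999578, plus strand) held none and 52.
Aoah: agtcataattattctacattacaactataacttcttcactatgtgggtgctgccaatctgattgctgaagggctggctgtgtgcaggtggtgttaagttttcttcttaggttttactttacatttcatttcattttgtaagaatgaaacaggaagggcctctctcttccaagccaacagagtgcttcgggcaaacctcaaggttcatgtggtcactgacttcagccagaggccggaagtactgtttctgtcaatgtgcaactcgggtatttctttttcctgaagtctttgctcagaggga
Dock2: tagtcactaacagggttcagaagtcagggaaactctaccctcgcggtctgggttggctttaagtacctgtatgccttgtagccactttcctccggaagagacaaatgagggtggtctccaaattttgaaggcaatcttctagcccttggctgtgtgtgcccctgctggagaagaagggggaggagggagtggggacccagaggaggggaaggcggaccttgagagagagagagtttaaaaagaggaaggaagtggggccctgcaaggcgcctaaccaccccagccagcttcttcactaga
Ankrd44: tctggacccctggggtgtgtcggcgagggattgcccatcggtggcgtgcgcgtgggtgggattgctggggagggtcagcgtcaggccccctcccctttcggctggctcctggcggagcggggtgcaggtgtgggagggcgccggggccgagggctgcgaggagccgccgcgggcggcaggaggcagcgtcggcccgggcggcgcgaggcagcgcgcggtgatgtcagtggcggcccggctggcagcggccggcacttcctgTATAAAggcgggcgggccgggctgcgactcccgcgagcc
Diaph2: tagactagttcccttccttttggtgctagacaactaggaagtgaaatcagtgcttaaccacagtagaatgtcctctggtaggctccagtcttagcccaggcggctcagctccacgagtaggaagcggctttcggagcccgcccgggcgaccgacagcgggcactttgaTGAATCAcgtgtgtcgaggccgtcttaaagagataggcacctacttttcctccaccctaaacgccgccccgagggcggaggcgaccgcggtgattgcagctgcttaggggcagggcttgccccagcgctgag
Msi2: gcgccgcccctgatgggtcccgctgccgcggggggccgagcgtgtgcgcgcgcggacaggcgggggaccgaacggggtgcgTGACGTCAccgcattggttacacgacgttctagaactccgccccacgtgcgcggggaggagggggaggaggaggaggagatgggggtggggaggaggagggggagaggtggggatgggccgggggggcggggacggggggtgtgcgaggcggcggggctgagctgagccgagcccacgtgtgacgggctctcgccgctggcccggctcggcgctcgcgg
Dock8: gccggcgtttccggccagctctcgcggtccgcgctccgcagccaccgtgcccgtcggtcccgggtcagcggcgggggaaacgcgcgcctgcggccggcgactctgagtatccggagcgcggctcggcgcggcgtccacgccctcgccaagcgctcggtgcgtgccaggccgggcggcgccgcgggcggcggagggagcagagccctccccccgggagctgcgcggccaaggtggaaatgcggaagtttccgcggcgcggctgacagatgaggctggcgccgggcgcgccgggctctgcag

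CG dinucleotides were more numerous in member promoters than in all 16505 promoters of the table, with medians of 25.5 and 14.0. The AP-1 motif TGANTCA stood in 9 member promoters (3.54%) and in 6.99% of all. The CRE TGACGTCA stood in 2.76% and 2.42%, an NF-kB motif (GGGA and TTTCC around 1 free base) in 0.394% and 0.406%, the TATA box TATAAA in 5.91% and 12.9%, and the PU.1 motif GAGGAAGT in 3.15% and 3.15%. These shares are descriptions of 300-base windows, both strands searched, and a match is not a binding site.

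At rest, Pol II lay on average in the near part of the gene without being limited to the start. The rule asks for Pol II at the start at rest, so a lean to the near part is partly set by the rule. The mean position of its tags had a median over members of 30.5% of the gene's length in both genotypes, and 126 members had over 50% of their tags in the first 20 kb in KO. Reach was defined as the distance from the start to the far edge of the unbroken run of 20 kb bins with at least 5 tags per kb. Reach was above 0 in 131.3 ± 6.51 members in WT and 130.7 ± 2.52 in KO at 0 h (mean ± SD, n = 3), and its median among those was 20 kb in both, so that in most members the first bin was itself under the limit. It was at least 100 kb in 32.00 ± 4.36 and 33.67 ± 4.04 members and at least 200 kb in 25.67 ± 3.21 and 26.33 ± 3.21. WT libraries at 0 h chose the members, so contrasts with WT at 0 h are given as values with no test.

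After 1 h of LPS fewer members held at least 5 tags per kb in the first bin, and the median reach was larger over the smaller set that did. Reach was above 0 in 88.33 ± 2.52 members in WT and 102.0 ± 3.46 in KO, with medians of 73.33 ± 11.5 kb and 80.00 kb. At least 100 kb was reached in 39.67 ± 2.52 and 44.00 ± 1.73 members. At 18 h the counts above 0 were 128.7 ± 3.21 in WT and 117.7 ± 4.16 in KO, and the median was again 20 kb. The mean reach over all 338 members hid these opposite movements, since it was 29.02 ± 2.98, 28.56 ± 0.995 and 30.41 ± 2.54 kb in WT at 0, 1 and 18 h and 30.15 ± 2.44, 31.24 ± 0.808 and 29.98 ± 1.26 kb in KO. The sign of the change in mean reach from 0 h to 1 h depended on the limit, being 1.10 kb in KO at 5 tags per kb, -5.61 kb at 2 and 7.39 kb at 10.

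In KO, reach at 1 h lay above all 0 h libraries in 39 of the 338 members and below them in 56. Of all genes of at least 20 kb, 4.98% and 8.63% did so. Shorter genes hold few 20 kb bins, so reach can take few values in them, and the shares here are not matched for length. At 18 h the counts were 38 and 47 (5.34% and 4.90% of all genes). The 1 h changes ran from 299 kb farther to 517 kb nearer. Between genotypes, KO reach stood apart from WT reach in few members, 13 farther and 11 nearer at 1 h (2.21% and 0.621% of all genes) and 5 farther and 9 nearer at 18 h (0.809% and 1.02%). Reach to the end of the gene in the group mean was seen in 20, 20 and 26 members in WT and in 21, 20 and 29 in KO at 0, 1 and 18 h.

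Mean density from 20 to 400 kb was highest at 1 h in both genotypes, whereas past 400 kb, in the 72 members longer than that, it was highest at 0 h. Many of the bins past 400 kb belong to Gm20388 and Fgfr2. Other protein-coding genes cover much of both, so Pol II of other genes can enter this density. From 20 to 100 kb the mean density over members was 3.44, 5.56 and 3.42 tags per kb in WT at 0, 1 and 18 h and 3.81, 6.17 and 3.67 tags per kb in KO. Past 400 kb it was 2.040, 1.645 and 1.757 in WT and 2.124, 1.799 and 1.635 in KO. The median whole-gene density went the other way, at 0.742, 0.321 and 0.616 tags per kb in WT and 0.814, 0.496 and 0.665 in KO. The mean thus rests on a minority of genes with high density at 1 h while the typical member held less. Members took 3.81%, 5.31% and 3.67% of library tags in WT and 4.11%, 5.68% and 3.79% in KO. First bins at or above 5 tags per kb made up 38.9%, 26.1% and 38.1% in WT and 38.7%, 30.2% and 34.8% in KO, and this share dropped with distance, as the plot of density against distance shows.

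**Figure D1:**
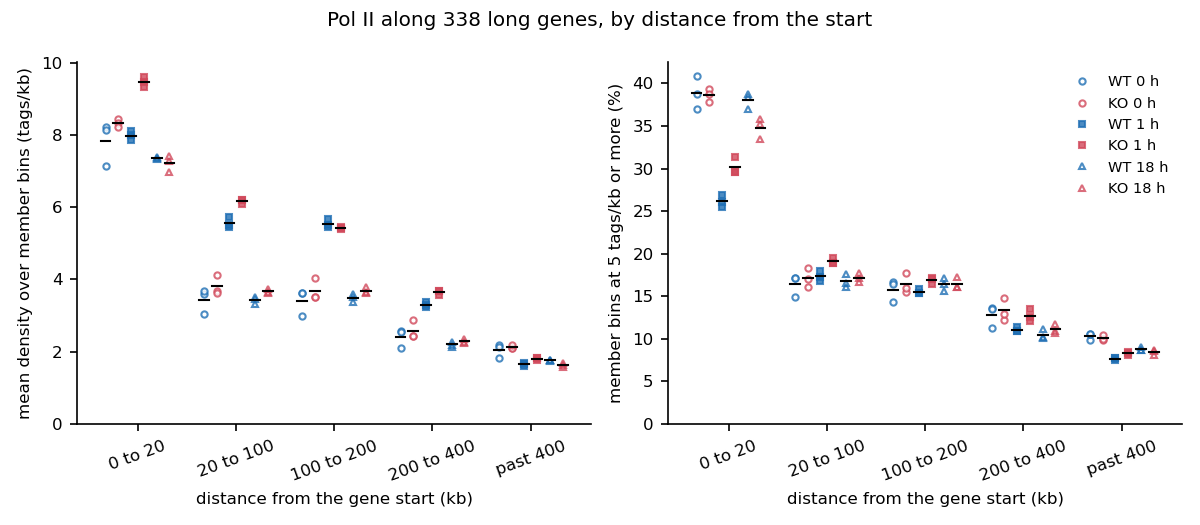
Mean Pol II density of member bins (normalized tags per kb) and the share of member bins with at least 5 tags per kb (%), by distance of the bin from the gene start (kb), in WT and KO at 0, 1 and 18 h. Each point is 1 library and each black tick the mean of 3, and at 1 h the share in the first 20 kb is the lowest of the 3 times in both genotypes.

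The test compared 20 kb bins with limma across all protein-coding genes of at least 20 kb, and called a bin at an adjusted p under 0.05 with a log2 change over 1 in size. Log2 changes are on the log2(tags per kb + 0.5) scale, which understates changes of low bins. In KO at 1 h against 0 h, 621 of 2694 member bins tested were called higher (23.1%) and 892 lower (33.1%), where 19.2% and 33.9% of all bins tested were called. With quantile normalization the split was 719 higher and 617 lower. The median log2 change was -0.47 over member bins and -0.50 over all bins. Bins called higher lay in 126 members and bins called lower in 229 of the 336 with a bin tested, and 63 members had both. In WT, whose 0 h libraries chose the members and which is given with no test, the log2 difference was over 1 in the same direction in 511 of the 621 bins (82.3%) and 782 of the 892 (87.7%), and over the bins called in all genes these shares were 79.3% and 88.2%.

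The calls differed with distance from the start. In the first 20 kb, 15.0% of member bins were called higher and 30.8% lower. From 20 to 100 kb the shares were 30.4% and 36.4%, from 100 to 200 kb 29.1% and 36.7%, from 200 to 400 kb 18.1% and 26.2%, and past 400 kb 10.2% and 33.2%. The member bins past 400 kb include many of Gm20388 and Fgfr2, much of which other protein-coding genes cover. In genes that were not members the shares called higher and lower were 12.8% and 28.1% in the first 20 kb, 22.9% and 37.8% from 20 to 100 kb, 22.0% and 39.4% from 100 to 200 kb, 17.4% and 35.5% from 200 to 400 kb, and 14.8% and 48.8% past 400 kb. Before LPS the genotypes were close, with a median log2 difference of 0.01 over 3491 member bins and a difference over 1 in 3.38% of them. These are all member bins with signal in any Pol II library. Some had no signal in either genotype before LPS, which makes the genotypes look closer.

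The members with the most bins gained at 1 h in KO were Foxp1, Ankrd44, Akap13 and Nedd4l. Ankrd44 (chr1:54645340-54926387, minus strand), which encodes a regulatory subunit of protein phosphatase 6, was the plainest case of a gene that came to hold at least 5 tags per kb from start to end. Between 20 and 100 kb its density in KO was 0.691, 0.642 and 0.908 tags per kb at 0 h and 40.9, 40.0 and 39.5 at 1 h, while WT libraries held 0.546, 0.821 and 0.684 at 0 h and 38.3, 37.7 and 38.2 at 1 h. Its reach at 1 h was 280 kb in all 6 libraries, against 0 or 20 kb at 0 h. The far end of the gain, measured in 5 kb bins as defined below, lay short of the gene's end. It was at 240, 220 and 240 kb in WT and at 240, 235 and 205 kb in KO. All 14 bins tested were called higher, by a mean log2 of 5.07 (largest limma adjusted p 3.2e-07). At 18 h the same stretch was at 0.541, 0.443 and 0.286 tags per kb in KO against 0.667, 0.400 and 0.718 in WT. Leaving out every Pol II region that touched an input region, which drops a long region whole for any overlap, left 2 of the 14 bins.

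Akap13 (chr7:75455534-75754609, plus strand) encodes an anchor of protein kinase A that also activates RhoA. Its density from 20 to 100 kb in KO was 0.660, 0.954 and 1.08 tags per kb at 0 h and 37.4, 36.8 and 36.3 at 1 h, with 14 of 15 bins called higher (mean log2 3.01, largest limma adjusted p 6.5e-05). WT libraries had 26.9, 26.3 and 25.4 tags per kb there at 1 h, below each KO library. With input-touching regions left out 1 Akap13 bin and 3 Foxp1 bins were called. Foxp1 (chr6:98925338-99522721, minus strand), a forkhead transcription factor, had 21 of 29 bins called higher (mean log2 2.85), 13 of them outside the overlapping Gm20696. Its reach was 40 kb in all 0 h libraries and at 1 h 140, 160 and 140 kb in KO and 180, 180 and 200 kb in WT. Nedd4l, a ubiquitin ligase, had 14 of 17 bins called higher and 1 lower (mean log2 of the higher bins 2.69), at whole-gene densities of only 5.84, 5.70 and 5.50 tags per kb in KO at 1 h against 0.740, 0.789 and 0.773 at 0 h.

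Other members were also filled along most of their length at 1 h in KO. Dock10, an exchange factor for small GTPases, had 13 of 13 bins called higher (mean log2 3.44) and the transcription factor gene Etv6 12 of 12 bins (2.57). App, which encodes amyloid precursor protein, had 11 of 11 bins (2.97) and Pam, an enzyme of peptide amidation, 13 of 15 bins (4.01). These 4 were picked after their values were seen. Nedd4l and Ankrd44 had 5 bins each when only bins with signal in every library compared were tested. The 10 members with the most gained bins held 136 of the 621.

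The balance of Pol II along the gene was read as the distal-to-proximal ratio, density past 100 kb over density from 20 to 100 kb. It was called lower at 1 h in KO in 49 of 296 members tested (16.6%, against 14.0% of all long genes tested) and higher in 48 (16.2%, against 12.9%). Among the 49, mean KO density from 20 to 100 kb was higher at 1 h than at 0 h in 35 and lower in 9, and density past 100 kb was lower in 28, so a low ratio came with gain in the first part, loss in the far part or both. Both densities were under the pseudocount of 0.5 at 1 h in 6 of the 49 and 8 of the 48, which holds the log2 ratio near 0. The largest falls were in Gphn, Slc7a11 and Aoah. Gphn (chr12:78226379-78684772, plus strand), the gene of the scaffold protein gephyrin, was listed at 0 from 20 to 100 kb in all 6 libraries at 0 h. At 1 h it held 8.43, 8.16 and 6.65 tags per kb there in KO against 12.5, 10.8 and 10.9 in WT, while no 0 h or 1 h library exceeded 0.192 past 100 kb. Its ratio changed by -4.05 ± 0.154 (SE, limma adjusted p = 1.1e-11) on the log2 scale.

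Slc7a11 (chr3:49892526-50443614, minus strand), the cystine-glutamate antiporter gene, is annotated over 551.1 kb, and its Pol II ended between 80 and 100 kb. Between 20 and 100 kb KO had 1.54, 1.68 and 1.69 tags per kb at 0 h, 23.2, 22.6 and 21.8 at 1 h and then 6.81, 8.19 and 8.37 at 18 h, and WT had 13.4, 13.1 and 14.5 at 1 h and then 2.51, 2.98 and 2.88 at 18 h. Past 100 kb no library exceeded 0.0503 tags per kb. KO libraries lay above WT libraries at both times after LPS. Its ratio changed by -3.53 ± 0.0877 (SE, limma adjusted p = 1.5e-13) at 1 h, and by -0.10 with input-touching regions left out.

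Aoah (chr13:20794113-21036617, plus strand) encodes acyloxyacyl hydrolase, the enzyme that removes fatty acids from LPS. Between 20 and 100 kb its density in KO was 0.180, 0.0727 and 0.0816 tags per kb at 0 h, 70.5, 69.3 and 69.2 at 1 h and then 105, 104 and 106 at 18 h. In WT it was 0.548, 0.622 and 0.328, then 80.7, 78.1 and 79.3, then 85.6, 83.2 and 84.8. Past 100 kb it was 7.88, 7.99 and 7.65 at 1 h and then 73.2, 73.3 and 75.2 at 18 h in KO, whereas WT held 10.6, 10.7 and 9.05 at 1 h and then 59.3, 60.1 and 59.7 at 18 h. Pol II thus filled the first part of the gene at 1 h and the whole gene at 18 h, with a reach of 140 kb in KO and 160 kb in WT at 1 h and 240 kb in both at 18 h. The ratio changed by -3.26 ± 0.143 (SE, limma adjusted p = 4.3e-11) at 1 h in KO, and by -0.66, not called, with input-touching regions left out. KO lay below WT at 1 h and above WT at 18 h in every library.

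Slco3a1 (chr7:74275419-74554780, minus strand), an organic anion transporter gene, behaved alike but from a gene body without listed Pol II. It was listed at 0 beyond 20 kb in all 0 h libraries. Between 20 and 100 kb it held 9.44, 11.4 and 10.1 tags per kb at 1 h in KO against 18.7, 16.4 and 16.1 in WT. At 18 h KO held 22.6, 21.0 and 18.4 there and WT 6.59, 9.27 and 7.61. Past 100 kb KO held 0.895, 0.948 and 0.861 at 1 h and then 19.9, 20.8 and 18.96 at 18 h. At 18 h 14 of 14 bins were called higher than at 0 h in KO (largest limma adjusted p 1.4e-09). Diaph2 (chrX:129749742-130465834, plus strand), a formin that assembles actin, was filled from the start outward at 1 h only, with a reach of 200, 200 and 200 kb in KO and 240, 220 and 220 kb in WT and of 20 kb in all libraries at 18 h.

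**Figure D2:**
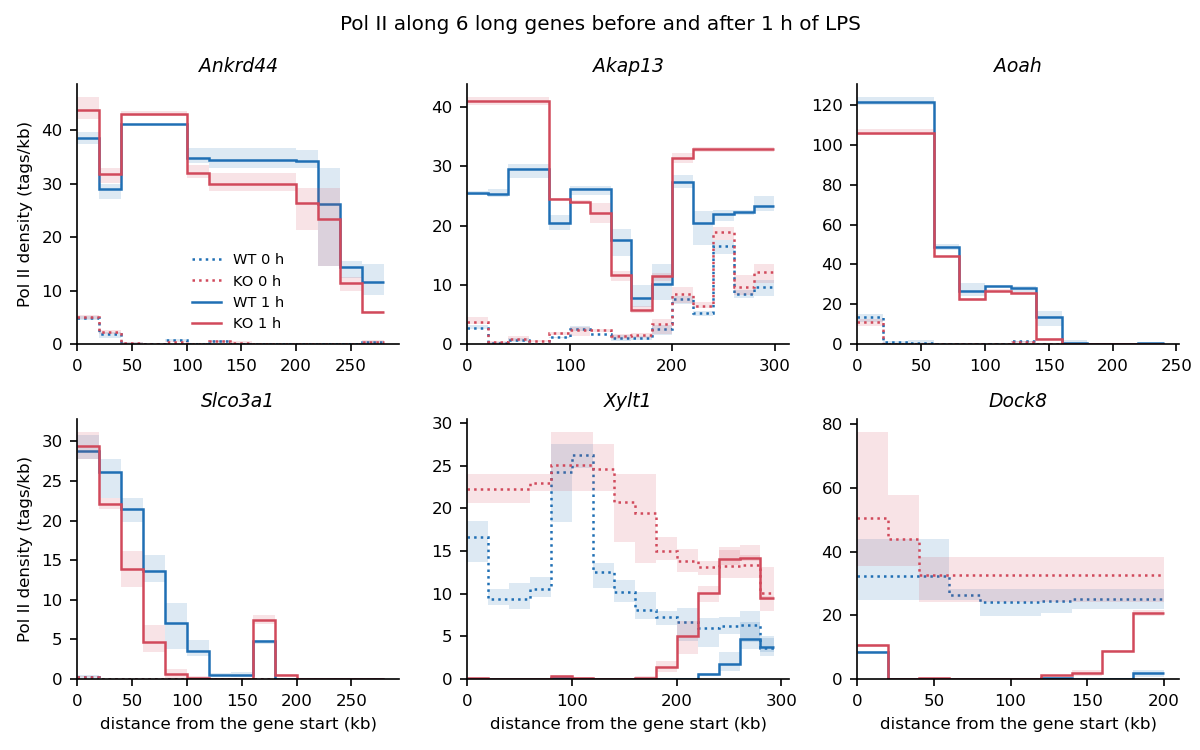
Pol II density (normalized tags per kb) in 20 kb bins along Ankrd44, Akap13, Aoah, Slco3a1, Xylt1 and Dock8, by distance from the gene start (kb), in WT and KO at 0 h and 1 h of LPS. Steps are means of 3 libraries and shading runs from the lowest to the highest library. At 1 h Ankrd44 holds at least 5 tags per kb up to 280 kb, and Xylt1 and Dock8 are emptied at the start while KO keeps more Pol II at the far end.

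The members with the highest whole-gene density in WT at 0 h were Asph, Mitf, Tns3, Peak1 and Alcam, which is how they were picked and not a finding. LPS moved them in both directions. Asph (chr4:9448069-9669344, minus strand), a hydroxylase of the endoplasmic reticulum, had 44.3, 53.1 and 53.5 tags per kb at 0 h in WT and 52.2, 51.3 and 57.3 in KO. At 1 h it had 8.98, 9.03 and 8.53 in KO, with all 11 bins called lower (mean log2 -3.35, largest limma adjusted p 1.3e-07), and 5.26, 5.21 and 5.57 in WT. At 18 h it stood at 35.5, 35.2 and 35.4 in KO against 38.7, 38.5 and 39.5 in WT. The KO libraries kept more Pol II at 1 h than the WT libraries, with 5 of 10 bins called higher.

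Peak1 (chr9:56201126-56418067, minus strand), a cytoskeletal pseudokinase gene, had 38.3, 36.9 and 42.0 tags per kb at 0 h and 21.4, 21.9 and 21.6 at 1 h in KO, while WT held 35.3, 41.4 and 42.5 at 0 h but 14.6, 12.6 and 13.98 at 1 h. The genotypes did not overlap at 1 h, and 5 of 11 bins were called higher in KO. Mitf (chr6:97807052-98021349, plus strand), a transcription factor of the macrophage and osteoclast lineage, held 69.0, 66.7 and 75.3 tags per kb from 20 to 100 kb at 0 h and 194, 186 and 183 at 1 h in KO, and 171, 166 and 168 at 1 h in WT, with 5 of 11 bins called higher in KO, all in the first 100 kb. Alcam (chr16:52248996-52454074, minus strand), an adhesion molecule gene, went from 35.2, 34.6 and 40.6 to 77.4, 75.2 and 75.2 and then 19.5, 19.5 and 19.4 tags per kb in KO, with 8 of 10 bins called higher at 1 h and 2 of 10 bins lower at 18 h. In WT it had 82.3, 79.3 and 81.4 at 1 h and then 10.2, 11.7 and 11.4 at 18 h. Tns3 (chr11:8431652-8664535, minus strand), which encodes a focal adhesion protein, stayed occupied to its end in all 18 libraries, between 35.4 and 61.9 tags per kb over the whole gene.

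The members with the most bins called lower at 1 h in KO were Gm20388 (55 of 111 bins, mean log2 -2.09), Fgfr2 (22 of 54 bins, -2.17), Fat3 (16 of 30 bins, -1.55) and Vps13b (16 of 26 bins, -1.50). Bins of Gm20388 and Fgfr2 lie largely in other genes. With bins shared with another gene left out, Gm20388 kept 12 bins called lower and Fgfr2 none. Fat3, an atypical cadherin gene (chr9:15910189-16501285, minus strand), went from 9.18, 9.20 and 9.63 tags per kb at 0 h to 5.54, 5.61 and 5.24 at 1 h and then 0.373, 0.405 and 0.400 at 18 h in KO, and in WT it had 3.37, 3.29 and 3.52 at 1 h and then 0.768, 0.698 and 0.749 at 18 h. Vps13b, a lipid transfer protein gene, had 1.37, 1.62 and 2.13 at 0 h and 0.619, 0.714 and 0.672 at 1 h in KO. Quantile normalization left 6 bins in Fat3 and 5 in Vps13b, and Fat3 had 9 without replicate 3.

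Xylt1 (chr7:117380979-117673580, plus strand), which encodes the enzyme that starts glycosaminoglycan chains on proteoglycans, lost its Pol II from the start outward. Between 20 and 100 kb KO had 23.3, 22.1 and 24.1 tags per kb at 0 h and 0.133, 0 and 0.105 at 1 h. Past 100 kb KO had 16.2, 16.4 and 18.8 at 0 h and 5.17, 5.25 and 5.44 at 1 h, whereas WT held 8.35, 10.6 and 9.67 at 0 h and 0.788, 1.09 and 1.04 at 1 h. In the bin from 240 to 260 kb, KO held 13.6, 13.4 and 15.1 tags per kb at 1 h and WT 1.02, 0.978 and 3.20. Of the bins tested in KO, 11 of 15 bins were called lower (mean log2 -4.80). At 1 h 6 of 8 bins were called higher in KO than in WT, all past 100 kb (mean log2 2.38, largest limma adjusted p 2.7e-04).

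Dock8 (chr19:24999534-25202432, plus strand), an exchange factor for Cdc42, gave the same picture in a gene of 202.9 kb. Its KO density from 20 to 100 kb was 35.5, 32.7 and 38.2 tags per kb at 0 h and 0.102, 0.0678 and 0 at 1 h, and the WT density at 1 h was 0, 0 and 0.0955. In the bin from 180 to 200 kb, KO held 21.8, 21.1 and 19.7 tags per kb at 1 h and WT 2.15, 2.82 and 0.783, so the genotypes parted at the far end. The distal-to-proximal ratio changed by 3.90 ± 0.203 (SE, limma adjusted p = 3.3e-10) from 0 h to 1 h in KO and differed by 2.39 ± 0.203 (SE, limma adjusted p = 5.7e-07) between KO and WT at 1 h. Of 252 members tested, 9 had a higher and 6 a lower ratio in KO than in WT at 1 h (3.57% and 2.38%, against 3.01% and 1.85% of all long genes tested).

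Dock2 (chr11:34226815-34783892, minus strand), the Rac exchange factor of leukocytes, had the largest rise of the ratio at 1 h in KO, 6.07 ± 0.140 (SE, limma adjusted p = 8.5e-14). Its density from 20 to 100 kb was 44.8, 42.8 and 48.4 tags per kb at 0 h and 0.0798, 0.188 and 0 at 1 h in KO, and 0, 0.0978 and 0.1004 at 1 h in WT, whereas past 100 kb KO held 16.3, 16.2 and 19.1 at 0 h and 14.8, 14.5 and 14.6 at 1 h, and WT 11.5, 10.7 and 10.96 at 1 h. At 18 h the first 100 kb was occupied again, at 17.9, 14.7 and 14.8 in KO against 12.97, 14.5 and 13.2 in WT from 20 kb on. With input-touching regions left out the ratio changed by 0.52, which was not called, and other protein-coding genes cover 19.4% of Dock2.

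A high ratio also arose where Pol II was gained only in the far part of a gene. Rapgef2 (chr3:79062516-79286517, minus strand), an exchange factor for Rap1, had 0.503, 0.632 and 0.574 tags per kb from 20 to 100 kb at 1 h in KO but 52.2, 52.3 and 52.5 past 100 kb, where it had 1.34, 1.19 and 1.61 at 0 h. WT had 67.3, 64.9 and 65.7 past 100 kb at 1 h. Its ratio changed by 5.32 ± 0.0828 (SE, limma adjusted p = 2.1e-15) at 1 h and by 2.67 ± 0.0828 (SE, limma adjusted p = 2.0e-12) at 18 h. Gas7 (chr11:67455437-67688990, plus strand), an actin-binding protein gene, held 140.3, 136 and 138 past 100 kb at 1 h in KO and 3.799, 3.77 and 2.82 in the first 20 kb. In both genes the density began between 100 and 140 kb and ran to the end, so the Pol II there did not join the signal at the annotated start. Leaving out every Pol II region that touched an input region removed the long regions and turned the Rapgef2 ratio to -0.101 at 1 h and -0.232 at 18 h.

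At 18 h against 0 h in KO, 622 of 2858 member bins were called higher (21.8%, against 20.1% of all bins) and 957 lower (33.5%, against 23.3% of all). The median log2 change was -0.34 over member bins and -0.13 over all. Higher bins lay in 134 members and lower bins in 191 of the 337 with a bin tested. From 200 to 400 kb, 39.9% of member bins were called lower, and in the first 20 kb 26.0%, where other genes had 33.7% and 15.9%. In WT, given with no test, the difference was over 1 in the same direction in 465 of the 622 bins (74.8%) and 760 of the 957 (79.4%), where over the bins called in all genes the shares were 76.6% and 70.3%.

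Among the members with the most bins gained at 18 h were Lrmda, Msi2 and Tanc2. Lrmda (chr14:22019712-23056085, plus strand), a gene of melanocyte differentiation, had 25 of 37 bins called higher in KO (mean log2 2.25), and here WT was the higher, with 2.16, 2.85 and 2.40 tags per kb over the gene against 1.76, 1.91 and 1.97 in KO. Msi2 (chr11:88339382-88718513, minus strand), an RNA-binding protein gene, was listed at 0 from 20 to 100 kb in all libraries at 0 h and 1 h and held 8.28, 8.31 and 7.48 in KO against 1.41, 1.61 and 1.65 in WT at 18 h. Tanc2 (chr11:105589986-105929304, plus strand), a scaffold protein gene, had 17 of 17 bins called higher, with whole-gene densities of 5.93, 6.16 and 5.62 in KO against 1.51, 1.91 and 2.01 in WT at 18 h. As these genes were mostly listed at 0 before, testing only bins with signal in every library compared left 1 bin in Lrmda, 3 in Msi2 and 3 in Tanc2.

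The most bins called lower at 18 h, a count that favours long genes, were in Cdk14, Fat3, Psd3 and Gm20388, and Cdk14, Vav3 and Psd3 were also the members with the longest reach at 0 h. Cdk14 (chr5:4803391-5420312, minus strand), a cyclin-dependent kinase gene, was occupied over all 616.9 kb in all 6 libraries at 0 h. Past 100 kb it had 12.3, 12.1 and 16.6 tags per kb at 0 h, 8.07, 8.72 and 8.08 at 1 h and then 1.51, 1.59 and 1.67 at 18 h in KO, with 29 of 31 bins called lower at 18 h (mean log2 -2.88), 5 with input-touching regions left out. Psd3 (chr8:67689082-68212027, minus strand), an exchange factor for Arf6, went from 8.52, 8.70 and 10.8 to 9.20, 9.81 and 9.08 and 0.248, 0.224 and 0.234 tags per kb over the gene at 0, 1 and 18 h, with all 26 bins lower at 18 h (mean log2 -3.67, largest limma adjusted p 5.7e-05). Vav3 (chr3:109340653-109685698, plus strand), an exchange factor for small GTPases, had 12.5, 12.2 and 15.5 at 0 h, 32.4, 33.0 and 32.5 at 1 h and then 0.737, 0.878 and 1.05 at 18 h, with 9 of 17 bins higher at 1 h and 17 of 17 bins lower at 18 h. WT values at 18 h were 0.322, 0.271 and 0.280 in Psd3 and, in Vav3, 1.29, 1.62 and 1.54.

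The distal-to-proximal ratio at 18 h against 0 h in KO was called higher in 29 and lower in 45 of 299 members (9.70% and 15.1%, against 7.93% and 11.9% of all long genes tested). Gas7 rose most, by 3.22 ± 0.0945 (SE, limma adjusted p = 1.7e-12), as density from 20 to 100 kb went from 7.95, 8.26 and 7.90 to 0.649, 0.895 and 0.848 tags per kb and density past 100 kb from 24.4, 22.9 and 25.2 to 34.3, 35.0 and 33.5. In 5 of the 29 and 9 of the 45 both densities were under the pseudocount of 0.5 at 18 h, which holds the log2 ratio near 0 whatever the position of Pol II, so their calls show no shift along the gene. The protocadherin gene Pcdh7, among the largest rises, is such a case, as its whole-gene density went from 5.75, 5.98 and 6.89 to 0.0490, 0.0494 and 0.0397 tags per kb. The falls were led by Umad1 (-3.35 ± 0.0764 (SE, limma adjusted p = 2.2e-13)) and Gm45062, which overlap and share the same bins, and by Eml6, whose signal at rest lay past 140 kb and went from 24.1, 23.4 and 24.6 to 4.22, 4.20 and 4.01 tags per kb past 100 kb. With the boundary moved to 60 kb the Umad1 value was 0.53, and with regions that touched an input region left out the Pcdh7 value was -0.29 and those of Gas7 (0.24), Eml6 (-0.29) and Gm45062 (-0.20) were no longer called.

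Role lists were read by the share of their members' bins called, beside 19.2% higher and 33.9% lower of all bins at 1 h and 20.1% and 23.3% at 18 h. The lists were drawn up with earlier results of these data known, so their directions are descriptions. The 16 members with an LPS or inflammation link had 98 of 201 bins called higher at 1 h (48.8%) and 16 lower, and at 18 h 20 of 193 higher and 88 lower (45.6%). Higher bins at 1 h lay in 12 of the 16. The 22 regulators of small GTPases and actin genes had 36.4% of bins higher and 16.7% lower at 1 h, and 8.20% and 40.2% at 18 h. This list also holds Ankrd44, whose 14 bins are among its 87 called higher at 1 h. These directions were kept with median centring and with quantile normalization.

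Of the other lists, the signalling list and the fragile-site genes went from more bins lower at 1 h to more bins higher at 18 h. As deposited, the receptor list and the ubiquitin list had larger shares called lower at 18 h than the lists above. The 24 members of the signalling list, which holds kinases, phosphatases and genes of cyclic nucleotide and related signalling and also the transcription factor gene Trps1, had 19.1% higher and 32.7% lower at 1 h and 31.1% and 22.1% at 18 h. The 24 transcription factors and chromatin proteins had 28.1% and 30.7% at 1 h, then 14.5% and 23.3% at 18 h. The 12 receptor, adhesion and membrane genes had 11.5% and 30.2% at 1 h, then 12.2% and 50.0% at 18 h. The 23 ubiquitin, RNA and trafficking genes had 20.3% and 40.0% at 1 h, then 9.87% and 50.6% at 18 h. The 11 genes at common fragile sites, among them Lrmda and Gphn, had 17.7% and 26.6% at 1 h, then 51.1% and 3.76% at 18 h, with higher bins in 6 of the 11. At 1 h the direction of 4 of these 5 lists turned with quantile normalization, to 59 higher and 51 lower for the signalling list, 76 and 50 for transcription factors, 25 and 17 for receptors and 21 and 9 for fragile sites, and median centring turned transcription factors to 79 and 77. The ubiquitin list (68 and 87) and all 18 h directions were kept. The order of the lists at 18 h was not kept with quantile normalization. Bins called lower were then 32 of 90 for receptors and 141 of 314 for the ubiquitin list, against 87 of 193 for genes with an LPS or inflammation link.

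**Figure D3:**
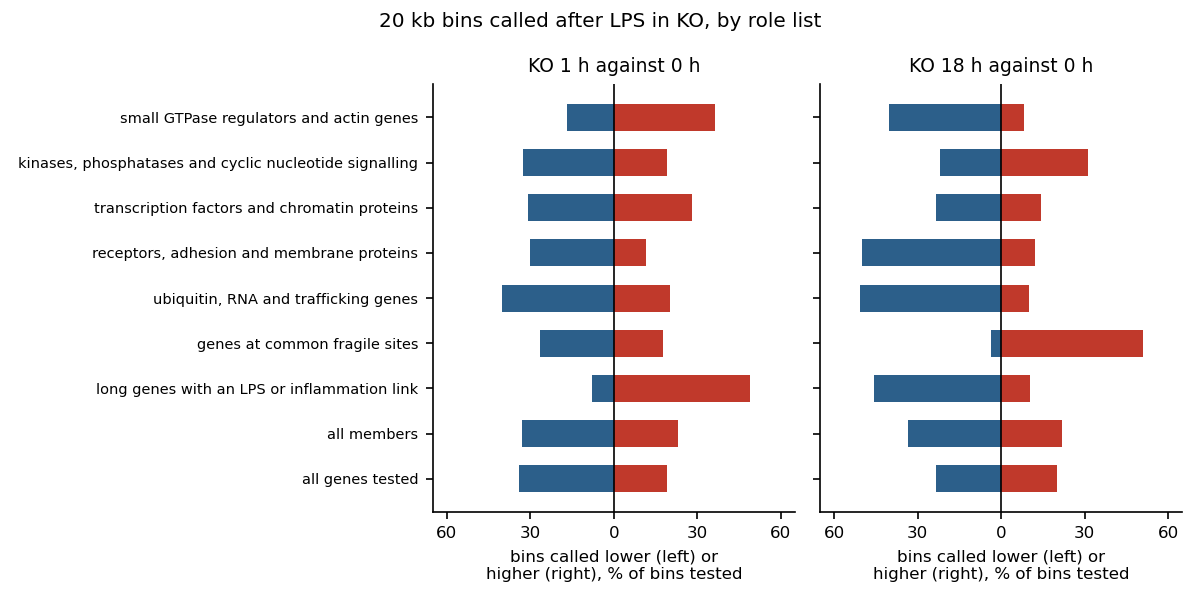
Share of 20 kb bins called lower (blue, left) and higher (red, right), in % of the bins tested, for members of each role list, all members and all genes tested, in KO at 1 h and at 18 h against 0 h. Genes with an LPS or inflammation link reach 48.8% higher at 1 h and fragile-site genes 51.1% higher at 18 h.

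Between KO and WT at 1 h, 235 of 2083 member bins were called higher in KO (11.3%, against 6.96% of all bins) and 78 lower (3.74%, against 3.00%). The median log2 difference over all bins tested was 0.25. With each library centred on the median of shared bins the split was 119 higher and 125 lower, and with quantile normalization it was 189 and 109. In KO from 0 h to 1 h and in WT from 1 h to 18 h the median over all bins was -0.50 and 0.67. Higher bins lay in 97 members and lower bins in 43 of 325, with 60 and 33 of the bins in the top 10 genes. The share called higher was largest from 200 to 400 kb (16.2%) and smallest in the first 20 kb (6.71%), where no member bin was called lower. In other genes the shares at the same distances were 14.5% and 4.17%, with 0.820% lower in the first 20 kb.

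Snx29 (chr16:11322908-11755472, plus strand), a sorting nexin gene, had 10 of 20 bins called higher in KO (mean log2 1.56), 4 with median centring and with quantile normalization. Past 100 kb it held 5.29, 5.51 and 4.92 tags per kb in KO against 2.67, 2.27 and 2.27 in WT at 1 h, while at 0 h KO held 8.34, 8.401 and 9.96 and WT 6.67, 8.84 and 8.47. Fbxl17 (chr17:63057452-63500017, minus strand), an F-box protein gene, had 8 of 16 bins higher (mean log2 1.75, 5 without replicate 2), with 4.55, 4.62 and 4.57 against 1.41, 1.78 and 1.53 past 100 kb at 1 h. Fat3 had 6 of 23 bins higher (mean log2 1.30, 3 without replicate 1 and 3 with either normalization). In all 3 genes the KO and WT values past 100 kb did not overlap at 1 h.

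The members with the most bins lower in KO at 1 h were Camk2d, Slco3a1, Vps13d and Diaph2. Camk2d (chr3:126596302-126846326, plus strand), a calcium/calmodulin-dependent kinase gene, had 5 of 13 bins called lower (mean log2 -1.97, largest limma adjusted p 0.0011). In its bin from 180 to 200 kb, WT held 48.6, 34.6 and 41.7 tags per kb and KO 5.32, 3.58 and 4.41, and its whole-gene density at 0 h was 10.1, 12.02 and 11.8 in WT and 5.35, 5.41 and 5.86 in KO. Slco3a1 had 4 of 10 bins lower (mean log2 -2.04) and Vps13d, a lipid transfer protein gene, 3 of 11 bins (-2.09). With input-touching regions left out no bin was called in Camk2d and Vps13d and 2 in Slco3a1. Diaph2 had 3 of 13 bins lower (mean log2 -3.16), with 0.294, 0.271 and 0 tags per kb in KO against 20.8, 14.5 and 17.7 in WT from 200 to 220 kb, while from 20 to 100 kb KO was the higher at 21.8, 22.3 and 22.2 against 19.7, 16.4 and 18.1.

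The far end of the gained Pol II at 1 h was measured in 5 kb bins. It was taken as the distance from the start up to which the gain over 0 h stayed at or above 0.5 of its median from 20 to 100 kb, with 1 missing bin allowed, a measure chosen after the profiles had been seen and given with no test. Of 37 members with a gain in both genotypes, 27 had this end, as a mean of 3 libraries, past 100 kb in at least 1 genotype and short of the gene's end in at least 1. It lay nearer the start in all 3 KO libraries than in all 3 WT libraries in 12 of them and farther in 1, Vav3. Over the 54 genes longer than 100 kb measured in this way, members included, 50.0% had the KO end nearer and 3.70% farther, so the 12 of 27 are no larger a share than in all genes measured. The median end was 170 kb in WT and 155 kb in KO, and the median difference was -15.0 kb in members and -10.0 kb in the 27 other genes. In the 17 members with the end past 100 kb in both genotypes, KO was nearer in 10 and farther in 0, where 52.9% of the 34 genes measured so had the KO end nearer.

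The 12 were Abr, Apbb2, App, Arhgap10, Camk2d, Dennd1a, Diaph2, Fndc3b, Map3k5, Ralgapa2, Trps1 and Zfand3. In Diaph2 the end lay at 230, 220 and 220 kb in WT and at 180, 185 and 180 kb in KO. In Camk2d it lay at 200, 195 and 200 kb in WT and at 155 kb in every KO library. App had 225 kb in every WT library and 210, 210 and 205 kb in KO. Map3k5, the gene of the stress kinase ASK1, had 170, 170 and 195 kb in WT and 160, 165 and 160 kb in KO, a difference no larger than the spread of the WT libraries. Bins of 5 kb inside a region share its value, so an end often marks the edge of a listed region. The count of 12 moved to 21 of 31 with the end set at 0.25 of the gain, 6 of 18 at 0.75 and 5 of 15 with no break allowed.

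**Figure D4:**
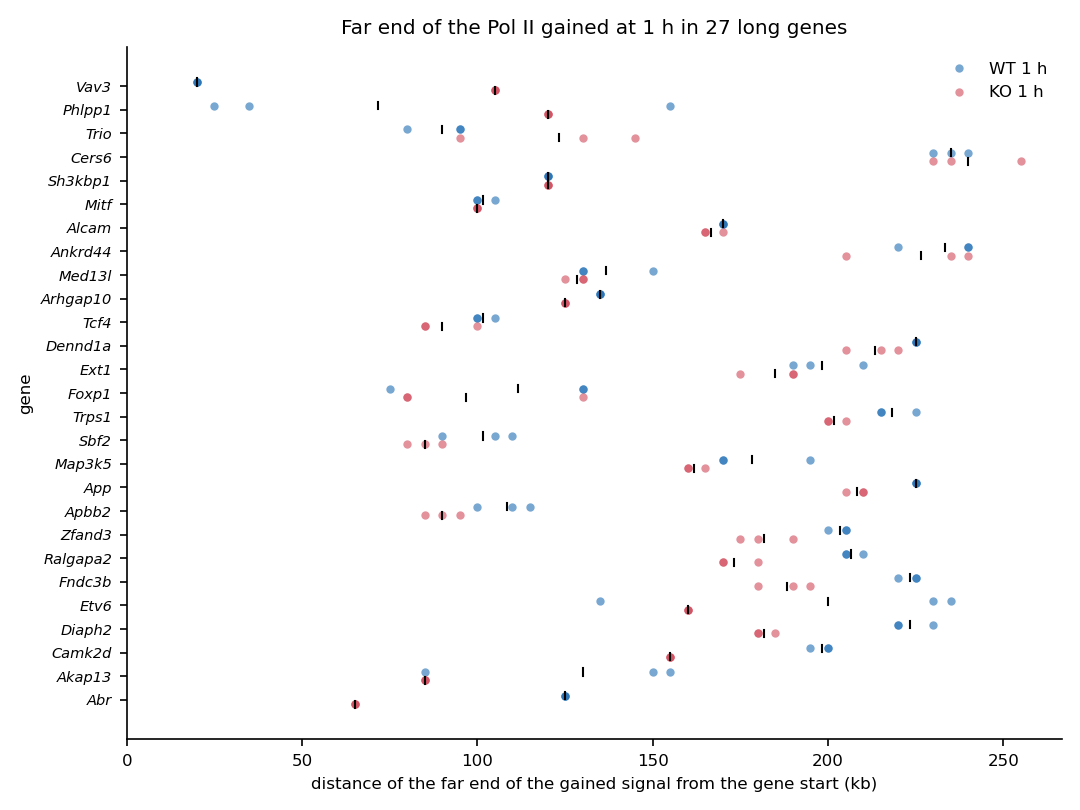
Distance of the far end of the Pol II gained at 1 h from the gene start (kb) in the 27 members where its mean lay past 100 kb in WT or KO and short of the gene's end in WT or KO, with 1 point per library, WT and KO apart, and a black tick at the mean of 3 libraries. In 22 of the 27 the KO mean is nearer the start, and in 12 no KO library reaches the nearest WT library.

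At 18 h KO was higher than WT in 186 of 2318 member bins (8.02%, against 4.0% of all bins) and lower in 79 (3.41%, against 2.91%). Whether more bins were higher at 1 h or at 18 h depended on the scaling, with 235 and 186 as deposited, 119 and 204 with median centring, and 189 at both times with quantile normalization. Higher bins at 18 h lay in 51 members and lower bins in 41 of the 320 with a bin tested. The 10 members with the most higher bins held 118 of the 186. Msi2 had all 19 bins higher (mean log2 2.53, largest limma adjusted p 0.0035) and Tanc2 14 of 17 bins (mean log2 1.81). Whole-gene densities of Msi2 were 5.08, 5.46 and 4.74 tags per kb in KO against 0.618, 0.815 and 0.679 in WT. The lowest KO library lay at least as far above the highest WT library as the WT libraries lay from each other in both of these genes.

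Ralgapa2 (chr2:146239879-146512344, minus strand), a subunit of a complex that turns off Ral GTPases, had 13 of 14 bins higher in KO at 18 h (mean log2 1.90, largest limma adjusted p 7.2e-05). It was at 20.9, 20 and 19.8 tags per kb at 1 h in WT and 16.5, 16.4 and 16.01 in KO, and at 18 h 2.69, 3.78 and 3.40 in WT and 10.7, 11.5 and 10.5 in KO. With input-touching regions left out 2 bins were called. KO was thus the lower at 1 h and the higher at 18 h. Slco3a1 had 12 of 14 bins higher at 18 h and went the same way. The distal-to-proximal ratio differed between KO and WT at 18 h in few members, with 2 called higher and 2 lower of 273 tested (0.832% and 0.624% of all long genes tested). Among the higher was Hivep3, a zinc finger factor (1.30 ± 0.0741 (SE, limma adjusted p = 9.3e-09)). Gphn had 9 of 15 bins higher, at 0.818, 0.967 and 0.907 against 0.219, 0.285 and 0.259. Slco3a1 and Gphn were named here after their values were seen.

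KO was lower at 18 h in Dock8, Asap1, Gm20388 and Cux1. Dock8 had 8 of 10 bins lower (mean log2 -1.43, largest limma adjusted p 0.0041), at 5.20, 5.09 and 5.09 tags per kb from 20 to 100 kb in KO against 11.1, 11.6 and 12.5 in WT. With input-touching regions left out 1 bin each was called in Dock8 and Asap1. The order of the genotypes in Dock8 was opposite at 1 h, when KO held more at the far end. Asap1 (chr15:64086857-64382919, minus strand), an activator of Arf GTP hydrolysis, had 7 of 13 bins lower (mean log2 -1.89), at 4.89, 5.43 and 5.11 past 100 kb in KO against 9.35, 11.4 and 11.3 in WT. Its Pol II was high from the bin at 60 kb on, and at 1 h it stood at 52.2, 51.7 and 52.0 past 100 kb in KO against 52.0, 51.1 and 51.6 in WT. Cux1, a homeobox gene, had 4 of 16 bins lower (mean log2 -1.31) but 2 with quantile normalization, without replicate 2 or without replicate 3. The 5 lower bins of Gm20388 all overlapped other genes.

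**Figure D5:**
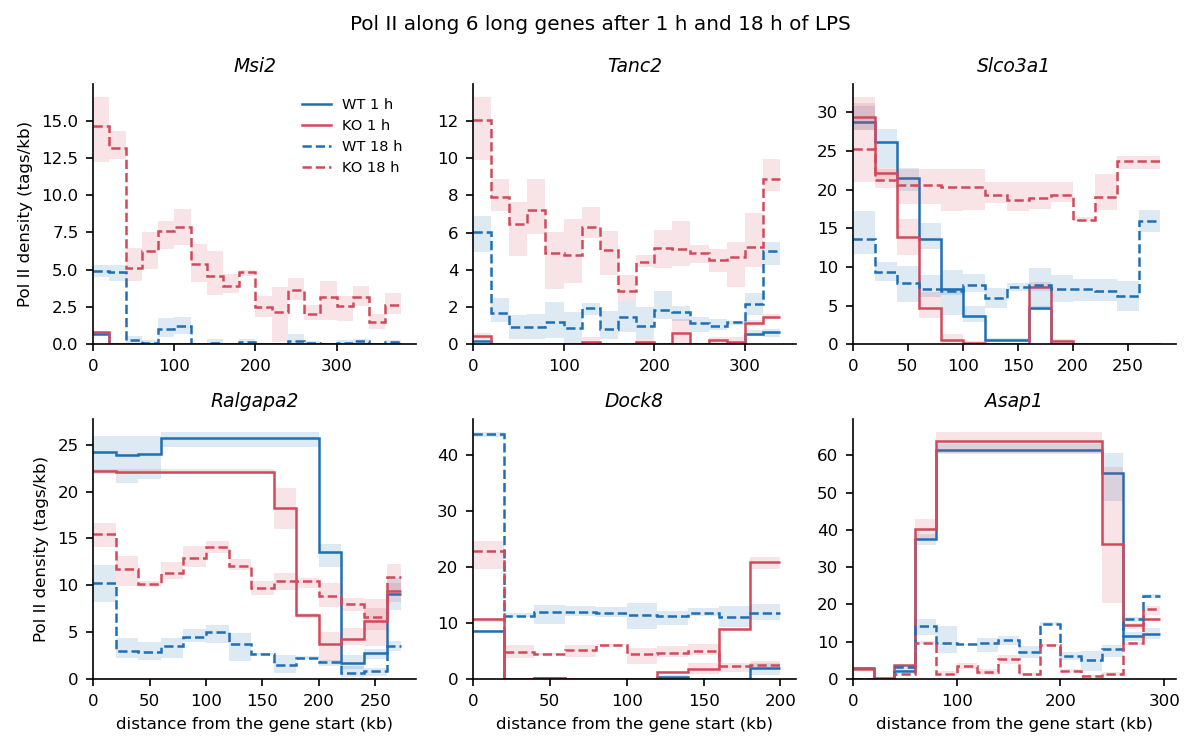
Pol II density (normalized tags per kb) in 20 kb bins along Msi2, Tanc2, Slco3a1, Ralgapa2, Dock8 and Asap1, by distance from the gene start (kb), in WT and KO at 1 h and 18 h of LPS. Steps are means of 3 libraries and shading runs from the lowest to the highest library, with KO above WT at 18 h in the first 4 genes and below it in Dock8 and Asap1.

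WT cells could be tested from 1 h to 18 h, since the rule used neither time. Of 2528 member bins, 926 were called higher at 18 h (36.6%, against 40.3% of all bins) and 745 lower (29.5%, against 17.5%). With median centring the split was 632 higher and 941 lower. The change from 1 h to 18 h differed between genotypes in 530 of 2752 member bins, with 212 called higher in KO than in WT (7.70%, against 4.89% of all bins) and 318 lower (11.6%, against 9.41%). This split turned to 335 higher and 159 lower with median centring.

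H3K27ac within 2500 bp of the start was a readout the rule did not use. The KO libraries numbered replicate 1 at 1 h and at 18 h stood apart, with correlations over member starts of 0.919 to 0.927 with the other replicates of their group, against 0.982 to 0.995 in the 14 other pairs, and counts are given with and without replicate 1. In KO at 1 h against 0 h, 16 of 335 members were called higher and 25 lower (4.78% and 7.46%, against 5.51% and 5.73% of all starts), and 19 and 23 without replicate 1. At 18 h the counts were 13 higher and 57 lower (3.88% and 17%, against 6.39% and 10.5%), and 11 and 72 without replicate 1. The rule chose starts with Pol II at rest, which all starts need not have, so these shares do not compare like with like. Between KO and WT, 8 were higher and 3 lower at 1 h (1.95% and 1.59% of all starts), but 26 and 8 without replicate 1 and 0 without replicate 2 or replicate 3, where limma gave 38 of 332 and 46 of 331 an unadjusted p under 0.05. At 18 h there were 2 higher and 1 lower (0.384% and 0.332%), and 1 and 1 without replicate 1.

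Starts that gained the mark belonged to several of the members that gained Pol II. Slco3a1 had 42.0, 41.7 and 47.8 tags at 0 h in KO, 341, 277 and 281 at 1 h and then 406, 592 and 621 at 18 h, and 53.8, 46.0 and 57.1, then 465, 479.5 and 467, then 481, 490.2 and 521 in WT. Its log2 change in KO was 2.52 ± 0.131 (SE, limma adjusted p = 1.1e-09) at 1 h and 3.33 ± 0.131 (SE, limma adjusted p = 2.7e-11) at 18 h. Aoah changed by 1.90 ± 0.196 (SE, limma adjusted p = 1.8e-06) at 1 h and 2.75 ± 0.196 (SE, limma adjusted p = 1.6e-08) at 18 h, and Slc7a11 by 2.03 ± 0.245 (SE, limma adjusted p = 8.6e-06) and 2.86 ± 0.245 (SE, limma adjusted p = 1.2e-07). Msi2 rose by 1.47 ± 0.105 (SE, limma adjusted p = 1.6e-08) at 18 h. Ankrd44, filled with Pol II at 1 h, had a log2 change of 0.22 ± 0.160 (SE, limma adjusted p = 0.27), which was not called.

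The starts called lower at 18 h included those of members that had lost Pol II along the gene. Fat3 changed by -3.75 ± 0.269 (SE, limma adjusted p = 1.6e-08), Psd3 by -2.08 ± 0.183 (SE, limma adjusted p = 1.6e-07), Xylt1 by -1.61 ± 0.263 (SE, limma adjusted p = 1.0e-04) and Pcdh7 by -1.29 ± 0.139 (SE, limma adjusted p = 1.4e-06). Foxp1, whose reach was 0 kb in every library at 18 h, changed by -1.71 ± 0.101 (SE, limma adjusted p = 2.0e-09). In the genes where KO held more Pol II than WT at 18 h, the H3K27ac difference at the start was 0.40 ± 0.105 (SE, limma adjusted p = 0.052) in Msi2 and 0.13 ± 0.109 (SE, limma adjusted p = 0.55) in Tanc2, and neither was called. In Dock8, where KO held less, it was -0.67 ± 0.224 (SE, limma adjusted p = 0.11), and -0.24 without replicate 1.

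Some members met the rule with hardly any Pol II in the gene. Mean reach at 0 h was 0 kb in 191 members in WT and 193 in KO, among them Adamts6, Pip5k1b and Plcb4, taken for the lowest density in the first 20 kb. In Adamts6, a secreted protease gene, all 0 h and 1 h libraries were at 0 over the whole gene, since the region that met the rule lay upstream of the start, and at 18 h the first 20 kb held 4.90, 5.26 and 4.96 tags per kb in WT and 4.70, 4.73 and 4.70 in KO. Pip5k1b, a phosphoinositide kinase gene, was at 0 in the first 20 kb of all 18 libraries but held 10.8, 10.8 and 11.02 tags per kb from 20 to 100 kb at 1 h in KO against 7.47, 6.71 and 7.38 in WT. The phospholipase gene Plcb4 never exceeded 0.146 tags per kb over the whole gene, and Dlg2, at 1973 kb, never exceeded 0.0525.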

How the data were processed

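Pol II, H3K27ac and input ChIP-seq libraries of WT and KO BMDMs at 0, 1 and 18 h of LPS were analysed as deposited (42 libraries, with 3 per group and antibody and 1 input per group). According to the study's methods the authors trimmed reads with Skewer and removed duplicates, and the submitters' processing notes name HISAT2 2.1.0, HOMER and mm10. Per the file headers, the authors called regions with HOMER in each library alone, without the input: 500 bp windows past a Poisson p of 0.001 were joined when closer than 1000 bp. The deposited signal of a region is its tag count scaled to 10 M tags per library. The antibody catalogue number differs between the labels and the study's methods.

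From these values the tags of each region were shared out by length over 20 kb bins counted from the start of every protein-coding gene of at least 20 kb (GENCODE release M21 on GRCm38, promoters from RefSeq), as tags per kb. Bins were tested with limma 3.58.1 (R 4.3.3) on log2(tags per kb + 0.5), with 6 group means and an intensity trend, when at least 2 of 3 libraries of a compared group had signal, and p-values were adjusted (Benjamini-Hochberg) over all bins tested. The distal-to-proximal ratio compared density past 100 kb with density from 20 to 100 kb in all genes longer than 200 kb, and H3K27ac was summed within 2500 bp of the start with 10 added before the log. The fits were tested on simulated data. Python 3.11.15, pandas 2.3.3, numpy 2.4.6 and matplotlib 3.10.9 were used for the rest.

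The members, role lists and tests were chosen with earlier results of these data known. Genes were named by rule: the 5 with the highest density in WT at 0 h, the 3 longest, the 4 with the most bins called in each direction of each comparison, the 3 with the largest called ratio change in each direction, the 3 longest and 3 shortest reaches at 0 h (ties taken by the lowest density in the first 20 kb), the 2 on each side of the length limit, and role list members whose bins are described. Some genes that the rule or the marker lists take in are not reported here, and they stay in all counts. Other pseudocounts, filters, bin sizes, scalings, the replicate number as a block and leaving out each replicate were tried.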

Additional observations from a re-analysis of the deposited data

Results flagged for a closer look

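The change of Pol II from 1 h to 18 h was flagged where it differed between KO and WT in the limma interaction test, and no explanation was weighed. It was called in 212 member bins as higher and in 318 as lower in KO than in WT. Among the genes with the most bins called higher were Msi2 with 19 and Ralgapa2 with 13. In Msi2 Pol II past the start appeared at 18 h and more so in KO, and in Ralgapa2 the Pol II gained at 1 h was mostly gone at 18 h in WT and less so in KO. The most bins called lower were 14 in Snx29, 11 in Gm20388 and 9 in Dock8. In Snx29 and Dock8 KO held more Pol II at 1 h in the far part of the gene, and bins of Gm20388 largely lie in other genes. Over all members the split depended on the scaling, with 335 higher and 159 lower when each library was centred on its median. Whether H3K27ac, input signal or depth has a part in these differences was not tested.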

How the results depend on the processing

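A pseudocount of 2 moved the KO counts to 471 lower at 1 h and to 552 lower and 413 higher at 18 h, the KO against WT counts to 105 at 1 h and 107 at 18 h, the interaction to 240, and the ratio calls to 54 at 1 h and 26 at 18 h (160 and 149 with 0.1). Testing only bins with signal in every library compared gave 375 lower at 1 h, 403 lower and 306 higher at 18 h, 182 and 165 for KO against WT at 1 h and 18 h, and 761 for WT. Without the regions that an input region touched, which removes long regions whole, the fits gave 277 lower and 112 higher at 1 h, 319 and 262 at 18 h, 115 and 133 for KO against WT, 506 for WT, 132 for the interaction, and 27 and 23 ratio calls. It also turned the Rapgef2 ratio to -0.101 at 1 h and -0.232 at 18 h and the Pcdh7 ratio to -0.289, and a boundary at 60 kb turned the Umad1 ratio to 0.532. H3K27ac within 500 bp of the start gave 15 calls at 1 h and 44 at 18 h, and for KO against WT 2 and 1. The H3K27ac calls for KO against WT, an alternative added after the data were seen, ran from 0 to 34 at 1 h and from 0 to 2 at 18 h leaving out each replicate, most without replicate 1, and were 0 at 18 h with signal in every library compared. The change in mean reach was unstable. For KO at 1 h it was -5.61 kb with a limit of 2, 7.39 with 10, -2.35 with 1 bin missing and 4.75 in 10 kb bins. For KO at 18 h it was 2.44 with a limit of 10, -2.47 with 1 bin missing, 2.46 in 10 kb bins, and -1.43 to 1.80 leaving out each replicate, positive without replicate 3. For WT at 1 h it was -8.37 with a limit of 2, 7.02 with 10, -4.30 with 1 bin missing, 3.16 in 10 kb bins, 4.34 with a common density floor and -2.74 to 0.905 leaving out each replicate, lowest without replicate 1, and for WT at 18 h -2.19 with a limit of 2. The leading edge count was 21, 6 and 5 with a share of 0.25, a share of 0.75 and no break. The causes were not tested.

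Deviations of same-numbered libraries had correlations of -0.14 to 0.14 over 45 pairs and those of other numbers -0.19 to 0.19 over 90, so the numbers were not taken as pairs, although 11 of 18 libraries correlated best on average with their own number, where 6 would if numbers had no part. With the replicate number as a block the KO counts were 621 higher and 891 lower at 1 h and 621 higher and 959 lower at 18 h, and KO against WT gave 315 and 265. Over the comparisons as a whole, 171 alternative values stayed within 1.5 times of a count or 1 SD of a mean and 54 moved beyond it. Among named genes 545 values stayed, 77 moved, 7 were no longer called and 4 changed sign.

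Windows below about 10 tags per kb did not pass the threshold, so lower density outside listed regions is not detectable here, and a fall to 0 is a fall below that limit. Regions were called per library, so a deeper or more enriched library can list more. Long regions average over their bins, which blurs where Pol II ends.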
